A study of Mus musculus with 6 samples.

Results

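The genes described here carry names given to protein subunits of the mitochondrial respiratory chain and of the ATP synthase. They were chosen by symbol, as the protein-coding mouse genes whose names mark them as mitochondrial (mt-) or as members of the families Nduf, Sdh, Uqcr, Cox4 to Cox8 and Atp5. Of 53801 gene identifiers in the count tables, 97 were members, 13 of them encoded by mitochondrial DNA and 84 by nuclear chromosomes. RNA was sequenced in 6 libraries of MC3T3-E1, a line of pre-osteoblasts grown from mouse skull bone. The 3 Control libraries came from cells infected with a lentivirus carrying a scrambled hairpin. The 3 Hdac4-knockdown libraries came from cells infected with a lentivirus carrying a hairpin against Hdac4, a class IIa histone deacetylase. The vector of both groups also carried ZsGreen1 and puromycin resistance, and cells of both groups were kept in puromycin at 5 μg/mL for 7 days. Each group is thus a drug-selected culture of 1 cell line with 1 hairpin, and the labels do not say whether the 3 samples of a group came from separate infections.

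The respiratory chain passes electrons from NADH through complex I, or from succinate through complex II, to ubiquinone, then through complex III and cytochrome c to complex IV, which reduces oxygen. Complexes I, III and IV pump protons across the inner mitochondrial membrane, and complex V, the ATP synthase, uses the proton gradient to make ATP. Complexes I, III, IV and V are assembled from subunits of both genomes, while every subunit of complex II is nuclear. Mitochondrial mRNAs are cut from long transcripts of mitochondrial DNA, which are made by a transcription machinery of nuclear origin. Osteoblasts draw on both glycolysis and respiration.

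In Hdac4-knockdown cells the called members encoded by mitochondrial DNA rose and most of the called nuclear members fell. Among 12 mitochondrial members with enough counts to test, 8 rose, 0 fell and 4 were not called, with a median log2 fold change of 0.43. With DESeq2, and without the second Control, the third Control or the third knockdown library, 6 rose, and 6 also rose under a filter of 10 counts per library, which left mt-Nd3 and mt-Nd4l untested. At an unadjusted p below 0.05 in edgeR, and at an adjusted p below 0.05 in DESeq2 and in limma-voom, 0 mitochondrial members fell as well. Among 78 nuclear members tested, 13 rose, 44 fell and 21 were not called, with a median of -0.16. A gene was called when the adjusted p (edgeR's quasi-likelihood test, Benjamini-Hochberg over all 14531 genes tested) was below 0.05 and the log2 fold change was beyond 0.05. By this rule 75.1% of all genes tested were called, 38% as higher and 37.1% as lower, and the median log2 fold change over all genes tested was 0.014. A call alone is therefore not particular to these genes, and the split of directions has to be read against a nearly even split in the whole table. Beyond a log2 fold change of 0.5, 5 mitochondrial members rose, and 2 nuclear members rose and 11 fell, beside 24.6% of all genes tested that rose and 19.8% that fell by that much. The libraries of the groups did not overlap in 6 of the 12 mitochondrial and 55 of the 78 nuclear members tested, beside 76.8% of all genes tested. With the upper-quartile scaling in place of the TMM scaling, the nuclear members split into 18 that rose and 33 that fell.

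**Figure D1:**
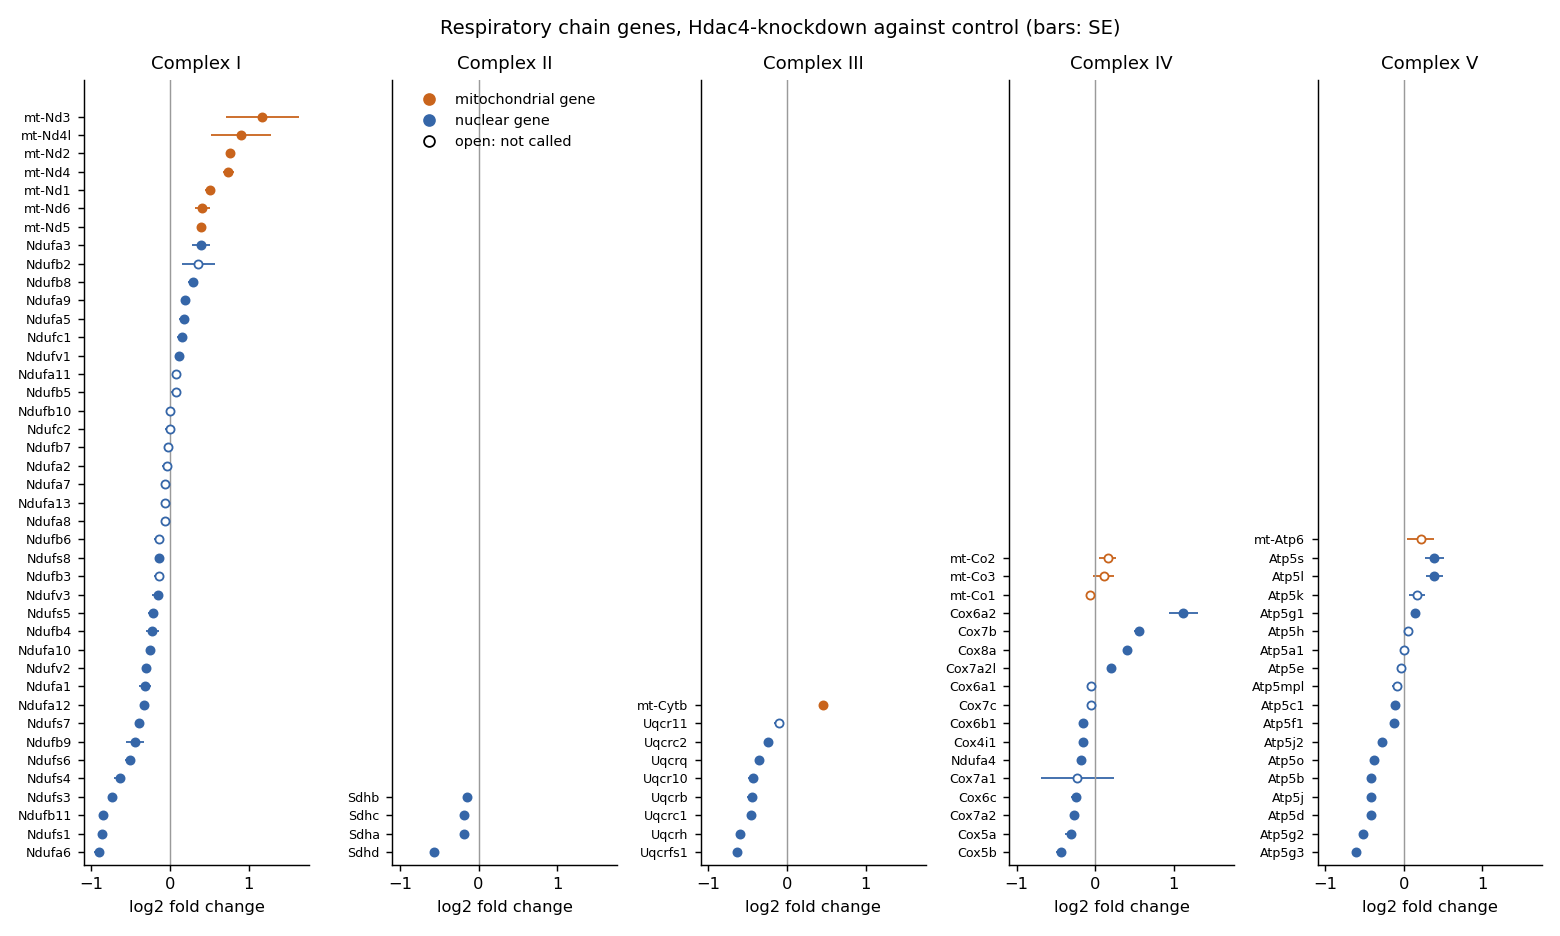
Log2 fold change (Hdac4-knockdown against Control, 3 libraries each) of the members tested, by respiratory complex, without 1 nuclear member of complex I that is counted but not shown. Points are fitted values, bars are standard errors, orange marks mitochondrial and blue nuclear genes, and open points were not called. In complex III the single mitochondrial gene lies at 0.46 while all 8 nuclear genes lie below 0.

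Several mitochondrial members had very low counts, and all of these but mt-Atp8 share nearly all of their sequence with annotated copies on a nuclear chromosome. A stretch of 4663 bases of chromosome 1 (mm10, chr1:24611535-24616197) holds 7 annotated pseudogenes that copy a continuous piece of mitochondrial DNA. Of all 50-base stretches in mt-Co2, 100% were also found in other annotated genes, most of them in the pseudogene Gm28661. The shares were 99.9% for mt-Co3, 99.5% for mt-Atp6, 98.8% for mt-Nd4l and 98% for mt-Nd3. A read that lies within such a stretch matches both places equally well, and the counting program put reads aligned to several places in a summary line of its own. The first pair of sequences is shown as an example in which no base tells the gene from its copy: 60 bases of mt-Co2 (GRCm38, chrM:7323-7382, plus strand) and of Gm28661 (GRCm38, chr1:24615196-24615255, minus strand), with 0 mismatches.
mt-Co2: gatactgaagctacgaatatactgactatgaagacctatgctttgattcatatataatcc
Gm28661: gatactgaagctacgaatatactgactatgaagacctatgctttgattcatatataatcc
The second pair is shown as the contrasting case, a gene whose nearest copy differs often enough for reads to be placed: 60 bases of mt-Cytb (GRCm38, chrM:14687-14746, plus strand) and of the pseudogene Gm11410 (GRCm38, chr4:80004531-80004590, plus strand), with the 4 mismatched bases in capitals.
mt-Cytb: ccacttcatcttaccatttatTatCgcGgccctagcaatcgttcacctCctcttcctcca
Gm11410: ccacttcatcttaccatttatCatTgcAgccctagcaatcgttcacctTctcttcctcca

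The counts of these 5 genes were far below those of their neighbours. In the first Control library mt-Co1 had 335569 counts, whereas mt-Co2 had 291 and its copy Gm28661 had 312. Counts per library were 112 to 200 for mt-Atp6, 143 to 197 for mt-Co3, 4 to 27 for mt-Nd3 and 8 to 21 for mt-Nd4l. mt-Atp8, which encodes a small ATP synthase subunit, lies between mt-Co2 and mt-Atp6 and had 1 to 5 counts, so it was not tested. Of its 50-base stretches 0% were shared with another annotated gene, but its last 43 bases match the start of Gm10925. Sequence between annotated genes was not searched, so whether a nuclear chromosome holds the rest of mt-Atp8 was not tested. How many reads of these 6 genes went to the line for several places was not tested, so their levels per length are not ranked below. mt-Co1 shared 51.1% and mt-Nd4 62.2% of their 50-base stretches with other annotated genes, mt-Nd2 8.19%, mt-Nd5 7.61%, and mt-Nd1, mt-Nd6 and mt-Cytb 0%. Leaving out the 5 genes with nearly complete copies and mt-Atp8, 6 of the other 7 mitochondrial members rose and the median log2 fold change was 0.46.

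On mitochondrial DNA the members run from mt-Nd1 (chrM:2751-3707) to mt-Cytb (chrM:14145-15288). The largest changes among the well-counted genes were in subunits of complex I. These proton-pumping membrane subunits are all of mitochondrial origin. mt-Nd2 stood at 1520, 1453 and 1554 CPM (counts per 1000000, with TMM scaling) in the Control libraries and at 2726, 2270 and 2680 CPM in the Hdac4-knockdown libraries. Its fitted log2 fold change was 0.76 ± 0.0527, where the error is the standard error (SE), with an adjusted p of 8.85e-11. All 3 knockdown values lay above all 3 Control values. mt-Nd4 went from 876, 842 and 963 CPM to 1598, 1249 and 1640 CPM (log2 fold change 0.74 ± 0.0717, adjusted p = 1.48e-08), also without overlap. mt-Nd1, which lies at the junction of the membrane arm with the NADH-oxidizing arm, had 2212, 2066 and 2275 CPM in Control and 3382, 2676 and 3247 CPM in knockdown cells (log2 fold change 0.51 ± 0.0609, adjusted p = 3.51e-07). The second knockdown library was the lowest of its group for each of these 3 genes.

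mt-Nd5, the subunit at the far end of the membrane arm, rose from 2028, 2015 and 2054 CPM to 2831, 2415 and 2721 CPM (log2 fold change 0.39 ± 0.0459, adjusted p = 2.89e-07). mt-Nd6 is the only member encoded on the light strand of mitochondrial DNA. Its Control values were 232, 209 and 240 CPM and its knockdown values 349, 231 and 326 CPM, so the groups overlapped through the second knockdown library, and the log2 fold change was 0.41 ± 0.0958 (adjusted p = 7.65e-04). No source states that strand was used in counting, so RNA of the opposite strand at mt-Nd6 cannot be told apart from its own. mt-Nd3 (log2 fold change 1.17 ± 0.465, adjusted p = 0.0286) and mt-Nd4l (0.90 ± 0.381, adjusted p = 0.0391) had the highest and second highest fitted fold changes of the mitochondrial members, but rest on fewer than 30 counts in every library. The call of mt-Nd4l was lost with no filter beyond 1 count (adjusted p = 0.105). Both calls were lost with DESeq2, at an adjusted p of 0.0585 for mt-Nd3 and 0.101 for mt-Nd4l. Without the second Control library the adjusted p was 0.139 for mt-Nd3 and 0.113 for mt-Nd4l, without the third Control library 0.083 and 0.136, and without the third knockdown library 0.178 and 0.106. The call of mt-Nd4l was also lost without the second knockdown library (adjusted p = 0.0858).

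Cytochrome b, the haem-bearing core of complex III, is the only subunit of that complex encoded by mitochondrial DNA. mt-Cytb had 3306, 3112 and 3179 CPM in Control cells and 4525, 4148 and 4527 CPM in Hdac4-knockdown cells. The groups did not overlap, and the log2 fold change was 0.46 ± 0.0395 (adjusted p = 2.59e-09). The 3 mitochondrial subunits of complex IV, which form its catalytic core, were not called. mt-Co1 had 10982, 10558 and 11090 CPM in Control libraries and 10857, 9413 and 10848 CPM in knockdown libraries, with a log2 fold change of -0.07 ± 0.0453 (adjusted p = 0.179). mt-Co2 had a log2 fold change of 0.16 ± 0.108 and mt-Co3 of 0.11 ± 0.132. mt-Atp6 of the ATP synthase was not called either (0.22 ± 0.171), and all 3 of these belong to the genes with copies on chromosome 1. mt-Co2 was called as higher with the upper-quartile scaling (log2 fold change 0.24, adjusted p = 0.0492), mt-Atp6 was called as higher without the second knockdown library (log2 fold change 0.40, adjusted p = 0.0293), and mt-Co1 was called as lower when no filter beyond 1 count was used (log2 fold change -0.10, adjusted p = 0.00102).

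**Figure D2:**
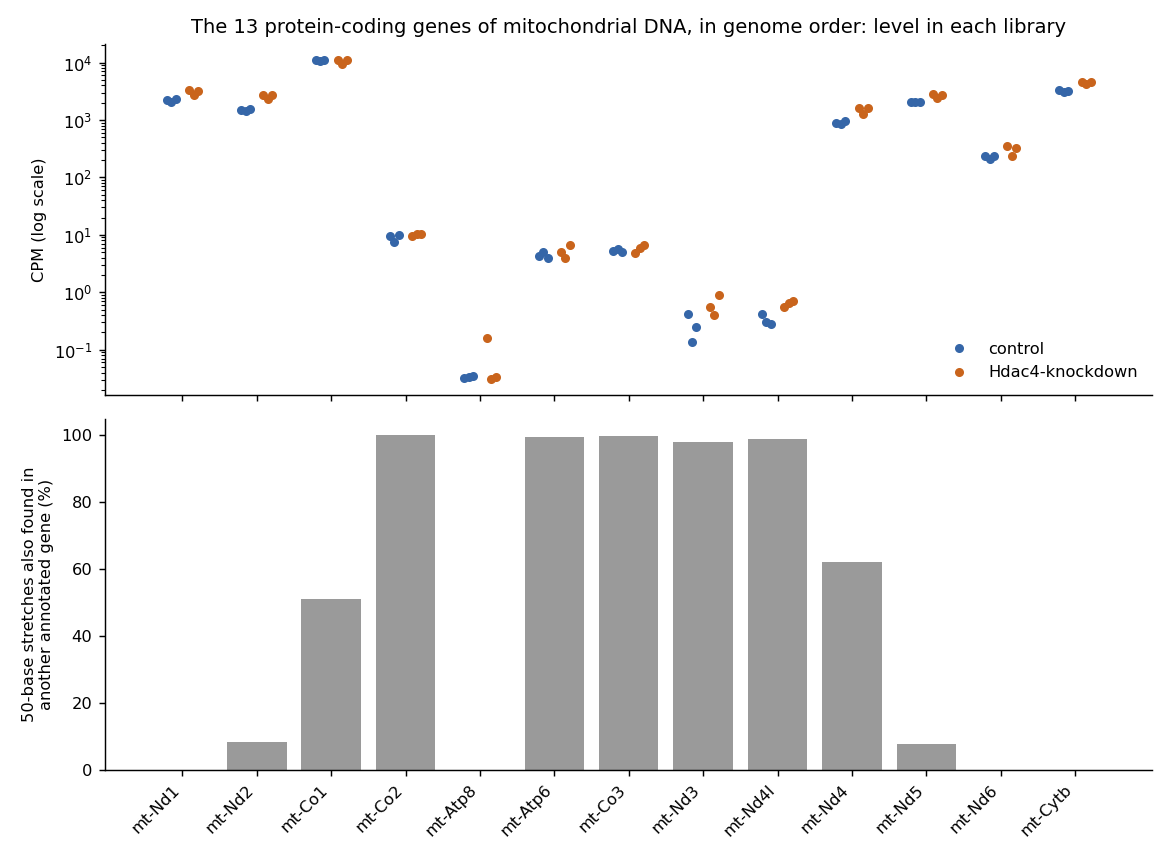
Upper panel, CPM of each mitochondrial protein-coding gene in each library on a log axis, in the order of the genes on mitochondrial DNA, with Control libraries in blue and Hdac4-knockdown libraries in orange. Lower panel, the percentage of each gene's 50-base stretches that also occur in another annotated gene. The run of genes from mt-Co2 to mt-Nd4l sits at or below 10.3 CPM while mt-Co1 reaches 11090 CPM, and for mt-Atp8 no shared stretch was found among annotated genes.

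mt-Co1, the mitochondrial gene with the most counts, was used as a common base for the others within each library, which needs no scaling between libraries. The ratio of mt-Nd2 to mt-Co1 counts was 0.138, 0.138 and 0.14 in the Control libraries and 0.251, 0.241 and 0.247 in the knockdown libraries, a log2 difference of 0.83. In this ratio the second knockdown library stood close to the others of its group. The log2 differences of the ratio to mt-Co1 were 0.81 for mt-Nd4, 0.57 for mt-Nd1, 0.53 for mt-Cytb, 0.46 for mt-Nd6 and 0.45 for mt-Nd5, and in each the groups did not overlap. The mitochondrial ribosomal RNAs are not members, but come from the same transcripts. The 16S RNA gene mt-Rnr2 had 546, 545 and 571 CPM in Control cells and 1226, 776 and 1112 CPM in knockdown cells (log2 fold change 0.91 ± 0.0985, adjusted p = 8.32e-08). The 12S RNA gene mt-Rnr1 had 132, 127 and 139 CPM against 189, 123 and 176 CPM (log2 fold change 0.29 ± 0.097, adjusted p = 0.0103), with overlap. The libraries are described as made from poly-A RNA, so levels of these RNAs depend on the tails that were captured.

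Levels of different genes were compared per length, as TPM (transcripts per 1000000). Among the 7 mitochondrial genes outside the low-count group, mt-Co1 in Control cells had the highest level at 21134 ± 659 TPM (SD, n = 3), followed by mt-Cytb at 8395 ± 290, mt-Nd1 at 6852 ± 372, mt-Nd2 at 4364 ± 171, mt-Nd5 at 3344 ± 49.7, mt-Nd4 at 1948 ± 144 and mt-Nd6 at 1315 ± 99.4. Each step was larger than the SD of either neighbour, but TPM divides by the whole exon length, also where a gene's stretches are shared (51.1% in mt-Co1 and 62.2% in mt-Nd4). The place of mt-Nd4 in this order is therefore not settled. In knockdown cells mt-Co1 stood at 21838 ± 2005 TPM, mt-Cytb at 12508 ± 773, mt-Nd1 at 10547 ± 1411 and mt-Nd2 at 8020 ± 886. The highest nuclear member was Atp5b, which encodes the catalytic β subunit of the ATP synthase, at 1526 ± 21.7 TPM in Control cells, above mt-Nd6. It was followed by Cox6a1 at 849 ± 16.1 TPM, and then by Cox8a at 720 ± 19 and Atp5a1 at 719 ± 12.4, which did not differ beyond their spread. At the low end of the tested nuclear members were Cox7a1 at 2.56 ± 1.56 TPM and Ndufb2 at 1.05 ± 0.291 TPM. Ndufb2 shares 447 of its 5628 exon bases with other annotated genes, where reads cannot be assigned. Its place at the low end is therefore not settled.

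The nuclear members are described in the order of the complexes. Complex I had 35 nuclear members, all tested, of which 6 rose, 17 fell and 12 were not called (median log2 fold change -0.14). The 7 core subunits that carry the flavin, the iron-sulfur clusters and the quinone site showed 6 that fell and 1 that rose (median -0.31). Ndufs1, the largest iron-sulfur subunit, had 108, 102 and 108 CPM in Control cells and 60.6, 57.2 and 56.3 CPM in knockdown cells (log2 fold change -0.87 ± 0.0482, adjusted p = 2.56e-12). Ndufs3 followed with -0.74 and Ndufs7, which carries the cluster next to the quinone, with -0.40. Ndufv2 changed by -0.31. The core subunit that rose was Ndufv1, which binds NADH and the flavin, from 136, 130 and 133 CPM to 137, 144 and 147 CPM (log2 fold change 0.11 ± 0.0435, adjusted p = 0.0352). The highest Control value of Ndufv1 lay just under the lowest knockdown value.

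Among 28 accessory subunits of complex I, which surround the core, 5 rose and 11 fell (median log2 fold change -0.07). Ndufa6 (chr15:82350140-82354322), a subunit of the LYR family, had 67.6, 65.2 and 67.8 CPM in Control cells and 34.5, 37.5 and 35 CPM in knockdown cells, the lowest log2 fold change of any nuclear member at -0.91 ± 0.0533 (adjusted p = 6.9e-12). Ndufb11, a membrane-arm subunit, went from 57.1, 57.2 and 54.6 CPM to 30.5, 31.8 and 31.6 CPM (log2 fold change -0.85 ± 0.0538, adjusted p = 2.35e-11). For both genes the knockdown libraries differed by little from each other and all lay far below Control. Ndufs4 (log2 fold change -0.64) and Ndufs6 (-0.51), both accessory to the NADH-oxidizing arm, also fell. In the other direction Ndufb8 rose from 58.1, 55.3 and 50.9 CPM to 63.2, 72.1 and 65.4 CPM (log2 fold change 0.29 ± 0.0597, adjusted p = 2.30e-04). Ndufa9 (0.19), Ndufa5 (0.18), Ndufc1 (0.15) and Ndufa3 (0.39) rose too, the last with overlapping groups. The call of Ndufa5 was lost without the third Control library (adjusted p = 0.137), and without that library 3 nuclear members of complex I rose in place of 6.

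Complex II oxidizes succinate and links the citric acid cycle to the chain. All 4 of its genes fell, with a median log2 fold change of -0.18. Sdhd (chr9:50596357-50603812), which encodes a membrane anchor, had 107, 111 and 105 CPM in Control cells and 71, 76.9 and 71.7 CPM in knockdown cells (log2 fold change -0.56 ± 0.0475, adjusted p = 2.35e-09). The other anchor, Sdhc, changed by -0.18 ± 0.0418 (adjusted p = 8.19e-04), the flavoprotein Sdha by -0.19 ± 0.0391 (adjusted p = 2.11e-04) and the iron-sulfur protein Sdhb by -0.15 ± 0.0518 (adjusted p = 0.012). In each of the 4 genes the groups did not overlap. With the upper-quartile scaling 2 of the 4 fell. Sdhb and Sdhc then lost their calls, and Sdhb also did without the first Control library (adjusted p = 0.0792) or the first knockdown library (adjusted p = 0.0755). The call of Sdhb was lost too with library size alone (adjusted p = 0.101) and with at least 10 counts in every library (0.0522).

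Complex III showed the lowest median of the nuclear groups, at -0.44, and 7 of its 8 nuclear members fell while 0 rose. The count that rose in complexes II and III, that fell among the complex II assembly factors and that rose among the complex V assembly factors was likewise 0 at an unadjusted p below 0.05 in edgeR and in DESeq2 and limma-voom. Uqcrfs1, the Rieske iron-sulfur protein that takes electrons from ubiquinol, had 108, 112 and 113 CPM in Control cells and 67.3, 74.4 and 72.7 CPM in knockdown cells (log2 fold change -0.63 ± 0.0483, adjusted p = 3.89e-10). Uqcrh, the hinge protein beside cytochrome c1, went from 111, 98.7 and 106 CPM to 66.6, 73.1 and 69 CPM (log2 fold change -0.59 ± 0.052, adjusted p = 3.32e-09). The core proteins Uqcrc1 and Uqcrc2 changed by -0.46 ± 0.0479 and -0.24 ± 0.0417, and the small subunits Uqcrb, Uqcr10 and Uqcrq by -0.44, -0.43 and -0.35. Uqcr11 was not called (log2 fold change -0.10 ± 0.0582, adjusted p = 0.118). Cyc1, the cytochrome c1 gene, is a subunit of this complex that the name patterns do not catch, and was added after its values were seen. It had a log2 fold change of -0.54 ± 0.0423 (adjusted p = 5.55e-10). mt-Cytb thus rose while the nuclear genes for the other redox centres of its complex fell.

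Complex IV had 20 nuclear members by name, of which 14 were tested, and 4 rose, 7 fell and 3 were not called (median log2 fold change -0.15). With the upper-quartile scaling 4 fell, and without the first knockdown library the median was -0.05. Cox5b, a matrix-facing subunit, had 133, 119 and 124 CPM in Control cells and 86.1, 97.1 and 94.5 CPM in knockdown cells (log2 fold change -0.44 ± 0.0531, adjusted p = 4.01e-07). Cox5a changed by -0.31 ± 0.0716 and Cox7a2 by -0.27 ± 0.0546, followed by Cox6c with -0.25. Rises of similar size were seen in other small subunits. Cox7b went from 118, 107 and 104 CPM to 144, 172 and 163 CPM (log2 fold change 0.55 ± 0.0597, adjusted p = 9.2e-08). Cox8a went from 147, 154 and 144 CPM to 186, 204 and 198 CPM (log2 fold change 0.40 ± 0.0447, adjusted p = 1.25e-07). Neither gene overlapped between groups. Cox7a2l, known for joining complexes III and IV in supercomplexes, rose by 0.20 ± 0.0533 on the log2 scale (adjusted p = 0.00209). It shared 13.8% of its 50-base stretches with other annotated genes, and the pseudogene Gm6969 held the largest part. Counts of Gm6969 were 1517, 1625 and 1513 in Control and 343, 304 and 283 in knockdown libraries. The part of one gene in the counts of the other was not tested. Summed over the nuclear members of complex IV, the level was 1373 ± 39.8 CPM in Control and 1364 ± 84.5 CPM in knockdown cells (SD, n = 3).

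Several complex IV subunits and the ATP synthase c subunit come as alternative genes, and these pairs were looked at together. Of 18 such genes 12 were tested, and 4 rose, 6 fell and 2 were not called. The widely expressed forms Cox4i1 (-0.16), Cox6b1 (-0.15) and Ndufa4 (-0.18) fell, and Cox6a1 was not called (log2 fold change -0.05 ± 0.0458). All 3 calls were lost with the upper-quartile scaling (adjusted p = 0.2, 0.357 and 0.102), with library size alone those of Cox4i1 (0.0606) and Cox6b1 (0.158), and with at least 10 counts in every library that of Cox6b1 (0.0929). The calls of Cox4i1 and Cox6b1 were also lost without the first knockdown library (adjusted p = 0.0522 and 0.186), and that of Cox6b1 also without the first Control library (0.153) or the third knockdown library (0.054). Cox6a2, the form of striated muscle, had 43, 48 and 44 counts in Control libraries and 108, 98 and 101 counts in knockdown libraries (log2 fold change 1.12 ± 0.188, adjusted p = 2.47e-05). At 15.8 ± 1.33 TPM it stayed far below Cox6a1 in the same knockdown libraries. Its exons share 70 bases with Itgad, and reads there cannot be assigned. The muscle markers Myod1 (log2 fold change -2.92), Myog (-2.08) and Acta1 (-1.86) moved the opposite way, and the part of either in the other was not tested. Cox7a1, the other muscle form tested, had 8 to 22 counts and was not called (log2 fold change -0.23 ± 0.464). Cox4i2, Cox8b, Cox8c, Cox6b2 and Ndufa4l2 had at most 9 counts in any library, and Cox8c had 0 in each. Cox7b2, named after its values were seen, was not tested but had 1, 1 and 1 counts against 6, 11 and 6.

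Complex V had 17 nuclear members, of which 3 rose, 9 fell and 5 were not called (median log2 fold change -0.11). The genes of the catalytic head gave unlike values, a difference that was not tested. Atp5b (chr10:128083273-128090391) had 2183, 2162 and 2119 CPM in Control cells and 1565, 1689 and 1621 CPM in knockdown cells (log2 fold change -0.41 ± 0.0368, adjusted p = 5.65e-09). Its partner in the head, the α subunit gene Atp5a1, had 734, 760 and 757 CPM against 736, 775 and 756 CPM (log2 fold change 0.01 ± 0.0368, adjusted p = 0.813), with overlapping groups. In the central stalk Atp5d changed by -0.42 ± 0.0495 (adjusted p = 2.31e-07) and Atp5c1 by -0.11 ± 0.0388 (adjusted p = 0.0165), and Atp5e was not called (-0.03 ± 0.0571). The call of Atp5c1 was lost with 3 of the other scalings and filters (adjusted p 0.1 to 0.663), without the first knockdown library (0.0659) and without the third (0.054).

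The ring of c subunits, through which protons pass, is encoded by a trio of genes for the same mature protein. Atp5g3 had 319, 298 and 289 CPM in Control cells and 193, 209 and 197 CPM in knockdown cells (log2 fold change -0.60 ± 0.0454, adjusted p = 3.8e-10). Atp5g2 had 212, 200 and 193 CPM against 130, 152 and 139 CPM (log2 fold change -0.52 ± 0.0526, adjusted p = 2.75e-08). Atp5g1 had 160, 151 and 144 CPM against 156, 176 and 172 CPM (log2 fold change 0.15 ± 0.0512, adjusted p = 0.0145), with overlap, and its call was lost without the second Control library (adjusted p = 0.0607), the third Control library (0.143) or the third knockdown library (0.058). In the peripheral stalk, which holds the head still, Atp5j changed by -0.41, Atp5o by -0.37 and Atp5f1 by -0.12, and Atp5h was not called (0.06 ± 0.0489). Atp5l (0.39 ± 0.111, adjusted p = 0.0038) and Atp5s (0.39 ± 0.124, adjusted p = 0.00785) rose at low levels of 5.95 to 9.34 CPM and 4.61 to 6.63 CPM. Atp5s is counted here by its symbol, which does not make it a subunit of the enzyme. With the upper-quartile scaling 6 nuclear members of complex V rose in place of 3.

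The 21 nuclear members that were not called had fitted log2 fold changes between -0.23 (Cox7a1) and 0.36 (Ndufb2, ± 0.211). Beside those already given, they were Ndufb3 (-0.14 ± 0.0621), Ndufb6 (-0.14 ± 0.0636), Ndufa8 (-0.07), Ndufa13 (-0.06), Ndufa7 (-0.06), Ndufa2 (-0.04), Ndufb7 (-0.03), Ndufc2 (0.00), Ndufb10 (0.00), Ndufb5 (0.07), Ndufa11 (0.08), Cox7c (-0.05), Atp5mpl (-0.08) and Atp5k (0.17 ± 0.103). The 12 of complex I are all accessory subunits. Some of these calls turn on a single library or on the scaling. Without the second knockdown library Ndufb3 (adjusted p = 0.00957), Uqcr11 (0.019), Ndufb6 (0.0275), Ndufa8 (0.0348) and Cox6a1 (0.0492) were called as lower. Without the third Control library this held for Ndufb3 (0.0442), Ndufb6 (0.0442) and Atp5mpl (0.0283), and without the second for Uqcr11 (0.0471). Without the first Control library Atp5k (0.002) and Ndufb2 (0.0225) were called as higher. With the upper-quartile scaling Atp5a1 (log2 fold change 0.10, adjusted p = 0.0201), Atp5h, Ndufa11, Ndufb5 and Atp5k were called as higher.

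The shares of all gene counts were compared next, within each library. Gene counts leave out reads aligned to several places. The mitochondrial shares, and the ratios given after them, can therefore lack reads of the copied genes. How many was not tested. Mitochondrial members took 2.08%, 1.98% and 2.09% of gene counts in Control libraries and 2.68%, 2.28% and 2.65% in Hdac4-knockdown libraries. Nuclear members took 0.984%, 0.957% and 0.947% against 0.82%, 0.891% and 0.859%. Neither pair of groups overlapped. mt-Co1 alone took 1.07% ± 0.0307 and 1.06% ± 0.0853 (SD, n = 3), and the other mitochondrial members together 0.986% ± 0.0329 and 1.48% ± 0.136. The 3 against 3 design allows no exact two-sided permutation p below 0.1.

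The ratio of mitochondrial to nuclear counts was 2.12, 2.07 and 2.21 in Control libraries and 3.27, 2.56 and 3.08 in knockdown libraries, a log2 difference of 0.47. Within complex I the ratio went from 3.2, 3.19 and 3.41 to 6.19, 4.68 and 5.82 (log2 difference 0.76). Within complex III it went from 3.93, 3.73 and 3.83 to 7.59, 6.32 and 7.14 (log2 difference 0.87). In complexes I and III the groups did not overlap. Within complex IV the ratio was 7.77, 7.71 and 8.32 in Control and 8.53, 6.53 and 7.9 in knockdown libraries (log2 difference -0.06), with overlap. Since mt-Co1 made up nearly all mitochondrial counts of complex IV, that ratio is a statement on mt-Co1. Leaving mt-Co1 out moved the ratio over all complexes to a log2 difference of 0.75. For complex V no ratio of use could be formed, because mt-Atp6 and mt-Atp8 were hardly counted. The second knockdown library stood nearest to Control in all of these ratios but that of complex IV.

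**Figure D3:**
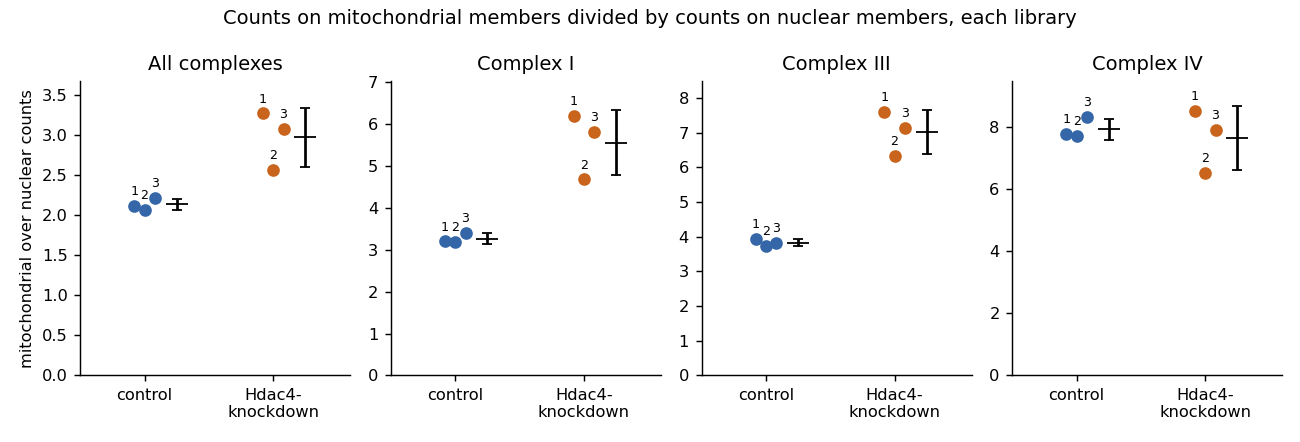
Counts on mitochondrial members divided by counts on nuclear members of the same complex in each library (numbers are replicates), with group means and SD (n = 3) as black lines. Control and Hdac4-knockdown libraries are separated over all complexes, in complex I and in complex III, and overlap in complex IV.

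That library also stood nearest to Control for the nuclear members. The median log2 deviation from the Control mean over the mitochondrial members tested was 0.55, 0.27 and 0.55 in the 3 knockdown libraries, and over the nuclear members -0.24, -0.10 and -0.15. Without the second knockdown library the ratio over all complexes had a log2 difference of 0.58, and without the first one 0.40. Over nuclear members with fewer than 10% of 50-base stretches shared with another annotated gene, 11 rose and 32 fell of 59 tested (median -0.15), close to the values for all nuclear members.

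Promoters of the nuclear members were searched for 3 motifs known from respiratory genes. RefSeq promoters (GRCm38.p6, 250 bases before to 50 after the gene start) were matched for 68 of the 84 nuclear members. The NRF1 motif GCGCATGCGC, which reads the same on both strands, was found in 5 (7.35%) against 1.07% of all genes, the ETS/GABP motif CCGGAAGT, on either strand, in 5 (7.35% against 4.31%) and the YY1 motif AAGATGGCG, on either strand, in 7 (10.3% against 1.64%). Of the 5 with the NRF1 motif, 2 fell (Atp5g2 and Uqcrc1), 0 rose and 3 were not called, beside 33 that fell and 12 that rose of the 60 tested without it. Of the 5 with the ETS/GABP motif, 2 fell and 1 rose, beside 33 that fell and 11 that rose of 60 without it. Of the 7 with the YY1 motif, Ndufs7, Ndufs6, Ndufs4, Atp5j and Atp5j2 fell and Ndufa9 and Ndufc1 rose, with a median log2 fold change of -0.40 beside -0.14 in the 58 without it. None of these differences was tested. Sequences around the NRF1 motif (capitals) are shown for 4 members, 1 that fell and 3 that were not called, to show where the 10 letters lie: Atp5g2 (chr15:102671055-102671114, minus strand, log2 fold change -0.52), Cox6a1 (chr5:115349086-115349145, minus strand, -0.05), Ndufa11 (chr17:56717677-56717736, plus strand, 0.08) and Atp5k (chr5:108434415-108434474, minus strand, 0.17).
Atp5g2: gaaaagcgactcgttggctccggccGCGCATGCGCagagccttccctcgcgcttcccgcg
Cox6a1: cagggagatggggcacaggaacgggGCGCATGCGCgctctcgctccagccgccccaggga
Ndufa11: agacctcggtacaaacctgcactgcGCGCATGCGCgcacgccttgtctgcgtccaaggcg
Atp5k: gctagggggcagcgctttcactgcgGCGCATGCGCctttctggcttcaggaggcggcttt
A match describes the letters in the window and says nothing of binding. The factor genes themselves were among the regulators of mitochondrial biogenesis, of which 2 rose and 8 fell of 13 tested (median log2 fold change -0.21). Nrf1 changed by -0.57 ± 0.0569 and Gabpa by -0.59 ± 0.0645, while the PGC-1-related coactivator Pprc1 rose by 0.71 ± 0.0436 and Perm1 by 1.61 ± 0.17. Yy1 was not called (0.09 ± 0.0443, adjusted p = 0.0612). Gabpa and Atp5j share 397 exon bases at a common start, where reads cannot be assigned.

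The genes that read, process and translate mitochondrial DNA were looked at next. Of 9 genes of mitochondrial transcription, 1 rose and 4 fell (median log2 fold change -0.10). The RNA polymerase Polrmt changed by -0.16 ± 0.0561 (adjusted p = 0.0164) with overlapping groups, a call that was lost with 3 of the other scalings and filters and without the second Control library (adjusted p = 0.0754), the first knockdown library (0.0813) or the third (0.085). The elongation factor Tefm changed by -0.35 ± 0.0938 and the rRNA methyltransferase Tfb1m by -0.60 ± 0.121. The initiation factor Tfb2m rose from 19.4 ± 1.27 to 26.2 ± 2.35 CPM (SD, n = 3, log2 fold change 0.44 ± 0.0779). Of 12 genes of mitochondrial DNA replication, 3 rose and 4 fell (median -0.03). Tfam, which packages mitochondrial DNA and starts its transcription, went from 61.7 ± 1.42 to 47.8 ± 1.53 CPM (log2 fold change -0.37 ± 0.0506, adjusted p = 2.01e-06), and Dna2 changed by -0.51. Polg2, the accessory subunit of the DNA polymerase, rose by 0.82 ± 0.147 and the topoisomerase Top1mt by 0.50 ± 0.0926.

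Of 19 genes of mitochondrial RNA processing and stability tested, 2 rose and 8 fell (median log2 fold change -0.12). Hsd17b10, a subunit of the enzyme that cuts the 5′ ends of mitochondrial tRNAs, went from 63.7 ± 2.3 to 128 ± 9.57 CPM (log2 fold change 1.01 ± 0.0539, adjusted p = 1.5e-12), and Ptcd1 rose by 0.26. The polynucleotide phosphorylase Pnpt1, part of the complex that degrades mitochondrial RNA, went from 106 ± 1.88 to 61.3 ± 2.49 CPM (log2 fold change -0.79 ± 0.047, adjusted p = 8.73e-12), and Ptcd2 changed by -0.77. Of 77 mitochondrial ribosomal protein genes, 21 rose and 31 fell (median -0.10), from Mrps27 (-0.77) and Mrpl22 (-0.66) to Mrps14 (0.46) and Mrpl27 (0.76). Of 10 translation factors, 3 rose and 6 fell (median -0.19). Among these Gfm2 (-0.64) and the elongation factor Tsfm (-0.47) fell and the release factor Mtrf1l (0.31) rose. Mtfmt also rose (0.22), with a call lost under DESeq2 (adjusted p = 0.0569), with no filter beyond 1 count (0.105), without any 1 of the Control libraries (0.0509 to 0.112) and without the third knockdown library (0.0945).

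Assembly factors were grouped by complex. For complex I, 6 rose and 5 fell of 19 (median log2 fold change 0.09). Aifm1, an oxidoreductase of the intermembrane space that is also a cell death factor, had the lowest value (82.8 ± 1.94 to 36.7 ± 1.31 CPM, log2 fold change -1.17 ± 0.0508, adjusted p = 4.63e-14), followed by the iron-sulfur delivery protein Nubpl (-0.89). Ndufaf3 (0.74) and Ndufaf8 (0.59) rose. For complex II, 3 rose and 0 fell of 4 (median 0.41), Sdhaf3 by 0.69 ± 0.131, Sdhaf2 by 0.13 ± 0.0536 and Sdhaf1 by 2.24 ± 0.592. Sdhaf1 had 10.2 counts on average and shares 1733 of its 2490 exon bases with E130208F15Rik, where reads cannot be assigned. The call of Sdhaf2 was lost under DESeq2 (adjusted p = 0.0558), with no filter beyond 1 count (0.188), without any 1 of the Control libraries (0.0535 to 0.229) and without the first or the third knockdown library (0.073 and 0.105). For complex III, 4 rose and 2 fell of 6 (median 0.21). Uqcc3, which acts in cytochrome b assembly, went from 5.98 ± 0.622 to 17.8 ± 2.1 CPM (log2 fold change 1.57 ± 0.109, adjusted p = 8.64e-11) and Uqcc2 rose by 0.24, while Ttc19 (-0.51) and the Rieske protein translocase Bcs1l (-0.33) fell. For complex IV, 8 rose and 8 fell of 20 (median -0.12), among them Coa7 (-0.88), the membrane insertase Oxa1l (-0.70), Cox14 (0.43) and Pet100 (0.61). For complex V, 0 rose and 2 fell of 4, Atpaf2 by -0.42 and Atpaf1 by -0.21 on the log2 scale. Atpaf1 lost its call with the upper-quartile scaling (adjusted p = 0.106), where 1 rose and 1 fell.

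Upstream of the chain, 13 of 14 citric acid cycle genes fell and 1 rose (median log2 fold change -0.32). Ogdh, the E1 subunit of 2-oxoglutarate dehydrogenase, went from 241 ± 6.04 to 112 ± 3.13 CPM (log2 fold change -1.11 ± 0.042, adjusted p = 5.78e-15), Sucla2 changed by -0.59 and Idh3b by -0.19, and the GTP-forming succinyl-CoA ligase subunit Suclg2 rose by 0.40. The call of Idh3b was lost with the upper-quartile scaling (adjusted p = 0.0599). Among 19 electron carriers and other donors of electrons to ubiquinone, 4 rose and 10 fell (median -0.21). Gpd2, the mitochondrial glycerol-3-phosphate dehydrogenase, went from 220 ± 6.81 to 105 ± 5.44 CPM (log2 fold change -1.08 ± 0.0461), and Coq10b changed by -0.53. Sqor (0.43) and Coq10a (0.45) rose. Of 23 genes of mitochondrial membranes and import, 3 rose and 18 fell (median -0.34). The ADP/ATP carrier Slc25a5 went from 595 ± 15.3 to 265 ± 12.3 CPM (log2 fold change -1.17 ± 0.0418, adjusted p = 2.26e-15) and the outer membrane channel Vdac1 changed by -0.69, while the import receptor Tomm20 (0.74) and prohibitin Phb (0.41) rose. Of 9 mitophagy genes, 1 rose and 7 fell (median -0.23). The receptors Bnip3 (-1.65 ± 0.079) and Bnip3l (-1.44 ± 0.0565) had the lowest values and Bcl2l13 changed by -0.18. The call of Bcl2l13 was lost without the third knockdown library (adjusted p = 0.0753), with library size alone (0.0549) and with the upper-quartile scaling (0.159). Pink1 rose by 0.19 ± 0.0684, with a call lost when no filter beyond 1 count was used (adjusted p = 0.0679), without the first Control library (0.118) or without the second knockdown library (0.0598).

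**Figure D4:**
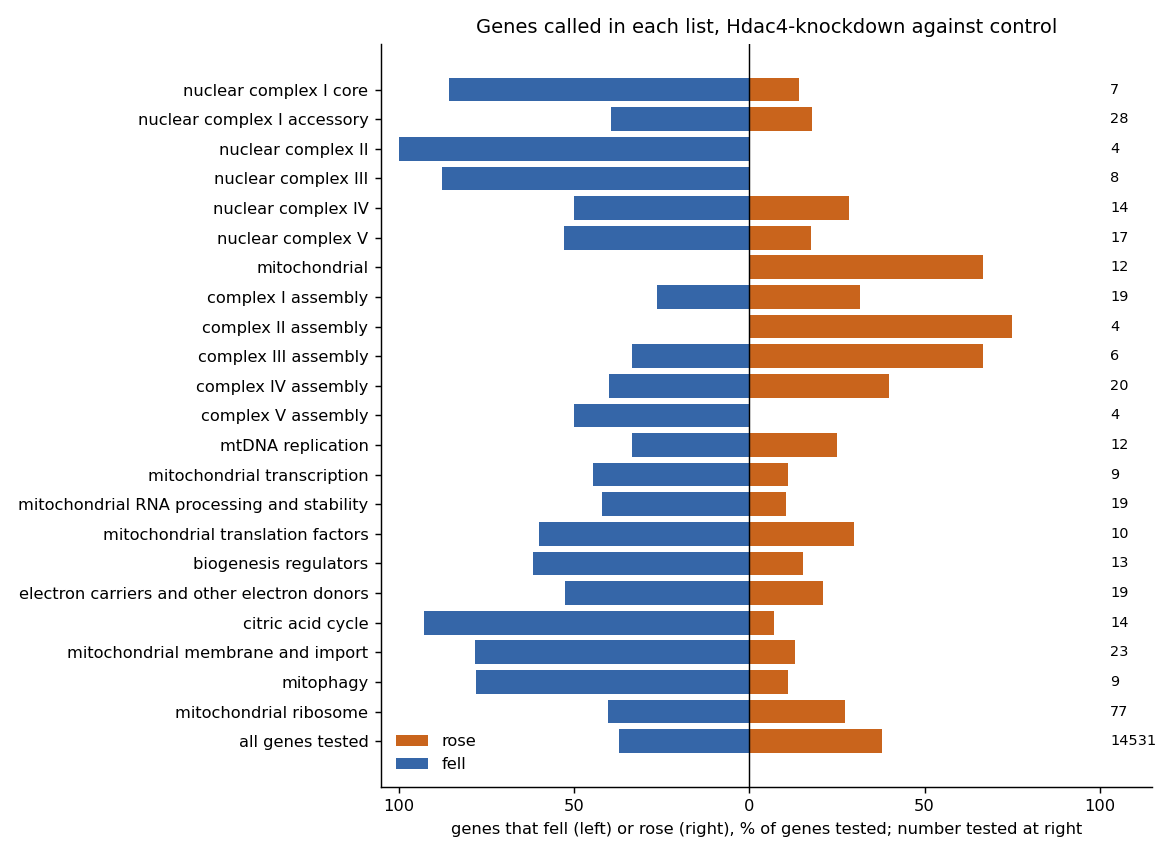
Percentage of tested genes that fell (blue, to the left) or rose (orange, to the right) in each group of respiratory chain genes and of other mitochondrial genes, with the number tested at the right. The bottom bar gives all 14531 genes tested, of which 37.1% fell and 38% rose, and the nuclear complex II, citric acid cycle, nuclear complex III and complex I core genes reach farthest to the left.

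The libraries held 29096544 to 31651826 gene counts. Hdac4 had 1243, 1204 and 1136 counts in Control and 950, 927 and 887 counts in Hdac4-knockdown libraries (log2 fold change -0.44 ± 0.057, adjusted p = 8.98e-07), or 73.6% of the Control level. Of the 8 pre-osteoblast markers, Col1a1, Col1a2, Sp7 and Runx2 rose and Spp1 fell, while Alpl, Bglap and Ibsp were near 0 in every library and Ibsp was at 0 in Control. Their summed level was 4775 ± 6.28 CPM in Control and 21715 ± 477 CPM in knockdown cells (SD, n = 3), and that of 16 markers of other cell types 318 ± 6.65 and 164 ± 9.71 CPM. Among the latter Myod1 had 67.9 ± 3.62 CPM in Control, Pecam1 and Col2a1 rose, Tubb3 fell, and Adgre1, Snap25 and Acan had 0 counts. The part of these shifts in the respiratory chain results was not tested, and in bulk RNA fewer cells of a type cannot be told apart from less RNA per cell. Reads that matched no counted feature, which can lie in introns or between genes, made up 3.28% ± 0.122 of reads in Control libraries. In knockdown libraries they made up 4.79% ± 0.243. Reads aligned to several places made up 4.71% ± 0.0872 in Control and 4.05% ± 0.15 in knockdown libraries. That line can hold reads of the copied mitochondrial genes.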

How the data were processed

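Poly-A RNA of 3 Control and 3 Hdac4-knockdown MC3T3-E1 samples was sequenced as paired ends. The authors deposited a table of raw counts per gene and library, and per the labels' processing notes the tools were FastQC, STAR 2.7.3a and HTSeq 0.12.4 with the mm10 genome. Summary lines of the counting program, which name no gene, held 14.3% to 15% of reads and were left out of library sizes. Gene names, exon lengths and overlaps were taken from GENCODE M21 (53706 of 53801 identifiers matched). Counts were fitted with edgeR 4.0.16 (quasi-likelihood test, TMM scaling, filterByExpr, R 4.3.3) over all genes with the group as the only term, with Benjamini-Hochberg adjustment. The SE is the log2 fold change over the square root of F. A gene was called at an adjusted p below 0.05 and a log2 fold change beyond 0.05, the thresholds that the study names. The study reported fewer genes in each direction at these thresholds, and its own fit was not repeated. DESeq2 1.42.0, limma-voom (limma 3.58.1), other scalings, filters and leave-one-out fits were alternatives. On simulated data with 190 changed genes tested, 95.3% were recovered and 6 of 187 calls were false. All planted changes had the same size, larger than the changes of most members. Recovery of smaller changes was not simulated. The simulation planted 200 changes, as many up as down, whereas 75.1% of genes tested were called in the real data. False calls with so many changed genes were not simulated either. CPM uses TMM-scaled library sizes, and TPM was computed from counts and exon length. Pseudogene copies were measured as shared 50-base stretches of annotated transcripts, and alignments were made with BLAST+ 2.17.0. Nuclear Ndufa4 and Ndufa4l2 were placed in complex IV.

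Members and gene lists were chosen with earlier results of these data known. The members named were the mitochondrial and Sdh genes, in complexes I, III, IV and V the 3 highest and 3 lowest called nuclear members with at least 100 counts on average and no overlap between groups, paired isoforms and members not called, and in each other list the 2 highest and 2 lowest called genes with at least 100 counts. Further members were named by their role after their values were seen. The values of 1 nuclear member of complex I are not reported here, but it stays in the counts and medians. Libraries held 29096544 to 31651826 gene counts, and replicates of a group differed by more than counting noise (chi-square per degree of freedom 3.23 to 8.36). The study calls the 3 samples of a group biological replicates, but the labels do not name separate cultures. The p-values therefore measure the spread between these samples, which may be technical. Replicate numbers did not pair the samples (correlations of same-numbered deviations -0.01109 to 0.02699), and no block was used.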

Additional observations from a re-analysis of the deposited data

Results flagged for a closer look

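Reads that matched no counted feature form a part of the data that no comparison of the report uses. They can lie in introns of annotated genes or between genes. Their share was higher in the Hdac4-knockdown libraries (5.07%, 4.64% and 4.66%, mean 4.79%) than in the Control libraries (3.41%, 3.17% and 3.25%), without overlap. It moves with the group, as the mitochondrial members do, and its part in them was not tested.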

How the results depend on the processing

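Across 15 alternatives the median of the mitochondrial members stayed above 0 and that of the nuclear members below 0. With a log2 fold change threshold of 0.5, 3579 genes rose and 2879 fell in the whole table, 5 mitochondrial members rose, and 2 nuclear members rose and 11 fell. By complex these were 0 and 6 in complex I, 1 that fell in complex II, 2 that fell in complex III, 2 that rose and 0 that fell in complex IV, and 0 that rose and 2 that fell in complex V. With no filter beyond 1 count, 1 mitochondrial member (mt-Co1) fell. Nuclear medians with library size alone were -0.10 over all, -0.08 in complex I, -0.13 in complex II, -0.38 in complex III and -0.05 in complex V, and with the upper quartile -0.07, -0.05, -0.09, -0.35 and -0.02. The complex II median was -0.15 with at least 10 counts in every library and -0.21 with no filter. With the upper quartile 2 genes fell in complex II, 4 fell in complex IV and 6 rose in complex V. The log2 difference of the ratio between the groups was 0.64 over all complexes on mean log2 counts and 0.75 without mt-Co1. In complex IV without mt-Co1 it was 0.15. Leaving out mt-Atp8 and the 5 genes with nearly complete nuclear copies, chosen after seeing the data, left the log2 difference over all complexes at 0.47. These 6 genes held 0.00191% of gene counts in Control libraries on average, beside 2.05% for all mitochondrial members. Leaving them out could therefore hardly move a ratio of summed counts, and it does not test the effect of the copies.

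Leaving out 1 library gave 9 to 14 nuclear members that rose and 36 to 49 that fell, 3 to 6 that rose in complex I, and complex IV medians from -0.20 to -0.05. The median of mitochondrial DNA replication genes turned to 0.01 (10 counts), 0.02 (library size) and 0.06 (upper quartile), and that of other cell type markers to 0.16 (no filter). Members near 0 that were not called changed sign. With the upper quartile these were mt-Co1 0.02, Cox6a1 0.04, Ndufa2 0.05, Atp5e 0.06, Cox7c 0.04, Atp5mpl 0.01, Ndufa8 0.02, Ndufb7 0.06, Ndufa13 0.03, Ndufb10 0.09 and Ndufa7 0.03. With library size alone they were Cox6a1 0.01, Ndufa2 0.01, Atp5e 0.03, Cox7c 0.01, Ndufb7 0.03 and Ndufb10 0.05, with 10 counts Atp5e 0.01, Ndufb7 0.01 and Ndufb10 0.04, and with no filter Atp5a1 -0.02 and Ndufc2 -0.02. Leaving out 1 library gave ranges across 0 for Cox6a1 -0.09 to 0.00, Cox7a1 -0.53 to 0.35, Ndufa2 -0.13 to 0.01, Atp5e -0.08 to 0.02, Atp5a1 -0.02 to 0.04, Ndufc2 -0.05 to 0.06, Ndufb7 -0.08 to 0.00 and Ndufb10 -0.04 to 0.04. The causes were not tested. Of the 65 members called, 54 to 65 were also called under each alternative.

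With the replicate number as a block, 7 mitochondrial members rose and 13 nuclear members rose and 45 fell. mt-Nd4l lost its call (adjusted p = 0.0704) and Ndufb3 gained one (0.0427). The numbers do not pair the samples.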

Other observations

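Subunits that the name patterns miss had these values: Usmg5 rose by 0.26 ± 0.0633 on the log2 scale (adjusted p = 0.0011, edgeR's quasi-likelihood test), while Ndufab1 (-0.17 ± 0.0805) and the ATP synthase inhibitor Atpif1 (-0.16 ± 0.104) were not called. The mitochondrial tRNA gene mt-Tp, on the light strand, had 517, 380 and 492 counts in Control and 543, 384 and 548 counts in Hdac4-knockdown libraries (log2 fold change 0.02 ± 0.132).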
